A study of Mus musculus with 8 samples.

Results

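The genes described here are 34 mouse genes of homologous recombination, the Fanconi anaemia pathway and DNA damage signalling, given as a list of symbols and all present among the 24460 genes counted. Their transcripts were followed in wild-type mouse embryonic fibroblasts (MEF cells) cultured without RHPS4 (0 µM, 3 libraries), with 2 µM RHPS4 (3 libraries) or with 10 µM RHPS4 (2 libraries), RHPS4 being a small molecule that binds G-quadruplexes. All cells shared the same culture medium, and dose was the one factor recorded as differing. The labels name more than 1 exposure time without saying which applied to the RNA, and they do not say whether the MEF cells were primary or a line, or whether the libraries of a dose came from separate cultures. The p-values therefore measure the spread between these libraries, which may be technical.

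Homologous recombination repairs a double-strand break by copying an intact sister chromatid. The break is resected to single-stranded DNA, which BRCA2 and its partners prepare for pairing with the sister, and the joined molecules are later cut or dissolved. The Fanconi pathway acts on crosslinked DNA, where a core complex of FANC proteins attaches ubiquitin to FANCD2 and FANCI. The kinases ATM and ATR read breaks and single-stranded DNA, and signal through CHEK2 and CHEK1. Because a sister chromatid exists only after replication, many of these genes are transcribed mainly in dividing cells under E2F transcription factors, while others are expressed at all times.

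On that background knowledge 12 members were set apart as cell-cycle linked: Brca1, Brca2, Bard1, Rad54l, Xrcc2, Fanca, Fancd2, Fanci, Chek1, Exo1, Eme1 and Topbp1. The other 22 formed the remaining class. No promoter sequence was read to make this grouping. It drew on knowledge of E2F targets, however, so the motif counts below are not independent of it. The reference table (RefSeq, GRCm38.p6, 250 bases before to 50 bases after the start site) held 29 promoters for 27 of the 34 members. An E2F-type motif was counted as TTCCCGC, the word TTGGCGC, the word TTCGCGC or the word TTGCCGC on either strand. It was present in 15 of the 29, or 51.7%, against 9.57% of all 32851 promoters in the table. Of the 13632 promoters of genes that passed the filter on low counts, 15.9% held the motif. The share was higher, at 63.6%, among 33 promoters of the DNA replication genes listed further below. By gene, 6 of the 9 cell-cycle linked members with a promoter and 8 of the 18 others held the motif. CCAAT stood in 51.7% of the members' promoters and 37.8% of those of tested genes, and TTTGAA in 6.90% and 12.2%. A match to GCGCCAA, the reverse of the second E2F-type word, can overlap CCAAT.

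Of the 9 members that were lower at 10 µM than at 2 µM, 7 had a promoter in the table. The motif was held by 3 of those (Fancm, Chek1 and Topbp1), while Slx4, Fanca, Rad54l and Mre11a lacked it in the window searched. All 3 members that were higher held the motif. The Slx4 window (chr16:4001629-4001928, minus strand) lay inside the gene, whose annotated 5′ end, at 4003770, was not searched. The same held for Fancc, with a window at chr13:63431696-63431995 and a 5′ end at 63497278.

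Promoters with a match are shown for 4 members named in the results below, with the E2F-type letters in capitals, each read 5′ to 3′ on the strand of its gene. Rad51c has a start site at each of 2 positions on chromosome 11 (chr11:87404457-87404756 and chr11:87404905-87405204, minus strand), and its transcript had the largest change with dose among the members. Chek1 (chr9:36726609-36726908, minus strand) and Topbp1 (chr9:103305077-103305376, plus strand) were lower at 10 µM than at 2 µM. Fanci (chr7:79392088-79392387, plus strand) is a cell-cycle linked gene that was higher at 10 µM than without RHPS4. The match in Chek1 began at +44 and that in Fanci at +19, counted from the RefSeq start site as +1. The 2 matches in Topbp1 began at -132 and -129 and overlapped.
Rad51c, start site 1: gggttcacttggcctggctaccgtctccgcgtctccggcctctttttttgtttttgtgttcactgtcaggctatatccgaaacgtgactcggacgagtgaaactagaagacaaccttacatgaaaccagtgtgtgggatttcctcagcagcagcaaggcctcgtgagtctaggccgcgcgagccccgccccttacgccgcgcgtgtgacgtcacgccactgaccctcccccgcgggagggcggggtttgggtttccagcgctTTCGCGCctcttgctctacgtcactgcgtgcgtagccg
Rad51c, start site 2: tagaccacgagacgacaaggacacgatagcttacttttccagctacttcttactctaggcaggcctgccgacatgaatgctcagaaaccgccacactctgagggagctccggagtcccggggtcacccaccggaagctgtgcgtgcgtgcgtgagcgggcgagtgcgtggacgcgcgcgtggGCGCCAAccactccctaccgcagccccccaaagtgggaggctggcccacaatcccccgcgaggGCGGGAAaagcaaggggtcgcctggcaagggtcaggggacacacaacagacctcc
Chek1: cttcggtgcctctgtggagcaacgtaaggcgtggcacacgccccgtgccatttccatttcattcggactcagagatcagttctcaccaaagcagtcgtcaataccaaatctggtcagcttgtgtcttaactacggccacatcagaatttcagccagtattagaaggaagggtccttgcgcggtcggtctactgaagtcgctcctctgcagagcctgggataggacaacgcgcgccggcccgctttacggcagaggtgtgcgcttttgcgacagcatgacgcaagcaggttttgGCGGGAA
Topbp1: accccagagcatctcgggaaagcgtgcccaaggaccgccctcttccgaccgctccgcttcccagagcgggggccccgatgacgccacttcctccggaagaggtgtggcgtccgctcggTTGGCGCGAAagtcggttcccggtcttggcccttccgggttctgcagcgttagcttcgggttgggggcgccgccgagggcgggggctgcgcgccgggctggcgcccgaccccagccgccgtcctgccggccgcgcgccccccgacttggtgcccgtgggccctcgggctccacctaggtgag
Fanci: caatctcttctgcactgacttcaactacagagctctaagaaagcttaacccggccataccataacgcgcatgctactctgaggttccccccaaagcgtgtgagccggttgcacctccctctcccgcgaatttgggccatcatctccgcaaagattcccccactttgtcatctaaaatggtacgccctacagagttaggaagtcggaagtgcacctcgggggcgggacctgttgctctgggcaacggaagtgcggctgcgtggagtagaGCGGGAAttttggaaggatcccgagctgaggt

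Since RHPS4 binds G-quadruplexes, the strand of the gene was also searched, with its reverse, for 4 runs of at least 3 G separated by 1 to 7 bases. Such a run was present in 3 of the 29 promoters of members (10.3%, against 27.3% of the promoters of tested genes), namely those of Fancm, Atr and the first start site of Rad51c. The promoter of Atr (chr9:95857347-95857646, plus strand) is shown with its run in capitals. These matches describe letters in a window and say nothing of binding.
Atr: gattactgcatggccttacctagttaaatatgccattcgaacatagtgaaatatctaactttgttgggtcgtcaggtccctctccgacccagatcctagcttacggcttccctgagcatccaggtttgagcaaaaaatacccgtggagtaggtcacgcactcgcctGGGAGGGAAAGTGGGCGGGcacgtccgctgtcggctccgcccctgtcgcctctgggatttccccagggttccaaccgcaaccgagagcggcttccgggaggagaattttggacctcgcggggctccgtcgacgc

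The libraries held between 10455965 and 26688121 counts, so that 3 counts, the floor used here, corresponded to 0.112 to 0.287 CPM (counts scaled to a common library size). Such floors cover counting error only. The members' own counts ran from 60 for Fancg to 7237 for Topbp1, and all 34 passed the filter on low counts that left 14296 genes to be tested. All 8 fibroblast markers had a mean of at least 1 CPM, and their summed level was 12570 to 13110 CPM without RHPS4, 11300 to 11660 CPM at 2 µM and 10990 to 11580 CPM at 10 µM. The summed level of the macrophage markers was 7.05 to 11.3 CPM over all libraries, that of the epithelial markers 2.38 to 4.05 CPM, that of the endothelial markers 3.25 to 5.46 CPM and that of the pluripotency markers 1.32 to 2.94 CPM, with no marker at 0 in every library. Transcripts of mtDNA took 13.2% to 14.4% of counts without RHPS4, 7.40% to 8.26% at 2 µM and 5.33% to 6.32% at 10 µM. What part the shares of mtDNA transcripts and of fibroblast markers had in the members' values was not tested. In bulk RNA, fewer cells in a phase of the cycle and less RNA per cell cannot be told apart.

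Levels were compared between genes as CPM per kilobase of exon. In untreated cells Topbp1, the activator of ATR, was highest at 56.0 ± 3.21 CPM per kb (SD, n = 3), above Atr itself at 21.7 ± 1.29 CPM per kb. Nbn, at 20.3 ± 1.42 CPM per kb, and Rbbp8, the resection factor CtIP, at 18.2 ± 0.704 CPM per kb came next, and Nbn and Atr did not differ beyond their spread. Brca1 (17.1 ± 1.38), Mdc1 (16.95 ± 1.16) and Atm (16.6 ± 0.162) lay within their spread of each other on the same scale. The lowest members were the recombination gene Rad51c at 3.01 ± 0.163 CPM per kb and the core complex genes Fancg at 2.20 ± 0.105 CPM per kb and Fancc at 1.16 ± 0.131 CPM per kb, each below the one before by more than its spread. The core complex thus held both of the bottom places.

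**Figure D1:**
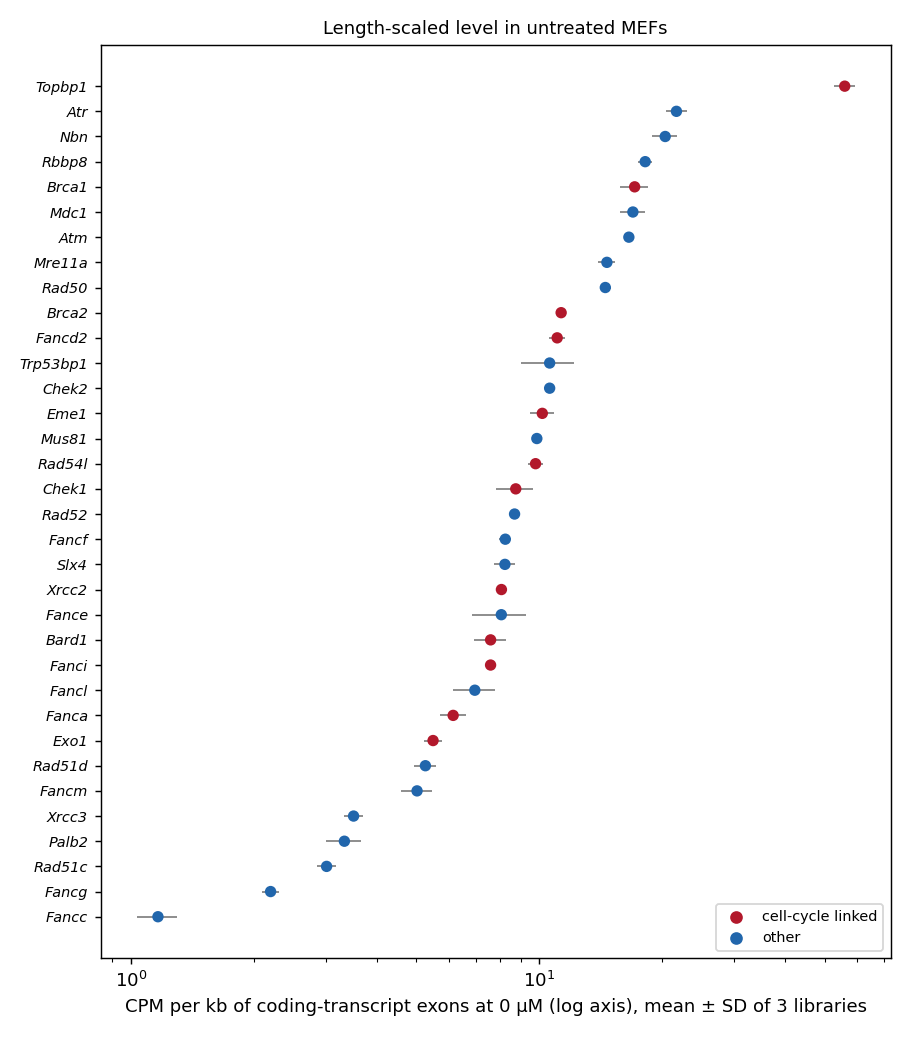
Level of each of the 34 genes in untreated cells (mean CPM per kb of exon on a log axis, bar SD, n = 3), ordered by level and coloured by class. Topbp1 stands highest at 56.0 CPM per kb and Fancc lowest at 1.16 CPM per kb, and both classes are spread along the range.

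Differences between doses were fitted with edgeR on all 8 libraries, scaled by TMM, which sets the bulk of genes equal between libraries. A gene was said to have risen or fallen at an adjusted p (Benjamini-Hochberg over all 14296 genes) under 0.05, and to be a differentially expressed gene (DEG) under the study's rule of an adjusted p under 0.01 with a fold change over 1.5. Fold changes are given on the log2 scale with their standard error (SE). The members' SE ran from 0.06 to 0.17 for 2 µM against 0 µM, and from 0.07 to 0.19 in each comparison with the 10 µM libraries.

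At 2 µM the members as a group lay slightly above their untreated level. The first untreated library stood apart from the others of its dose over all genes. Its chi-square per degree of freedom was 15.4 and 20.2 against them, where they had 3.23 with each other. Without that library 7 members were called at 2 µM, but calls over all genes also went from 595 of 14296 to 2061 of 14629. Of the 34, 1 rose and none fell, a share of 2.94% against 4.16% of all tested genes (1.51% higher and 2.65% lower), and none was a DEG (0.497% of all genes). At an unadjusted p under 0.05 there were 9, against 21.3% of all tested genes, and DESeq2 called 1 at an adjusted p under 0.05. The fitted log2 fold change was above 0 for 28 of the 34, against 48.2% of all genes, with a median of 0.12 against -0.01. The 3 libraries at 2 µM were all above the 3 untreated ones for 15 members and all below for 2, while 12.7% and 12.9% of all genes were separated that way.

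The member that rose was Nbn (NBS1, the subunit that ties the MRE11-RAD50 nuclease to ATM). Nbn read 55.6, 49.0 and 49.9 CPM without RHPS4, 66.1, 61.4 and 65.6 CPM at 2 µM, and 45.3 and 46.8 CPM at 10 µM. Every 2 µM library was above every untreated one, and both 10 µM libraries were below all others. The log2 fold change at 2 µM was 0.33 ± 0.07 (SE), a fold of 1.25, with an adjusted p of 0.0374 by edgeR. The adjusted p rose to 0.147 or 0.175 without the second or the third untreated library, and to 0.142, 0.116 or 0.0849 without the first, the second or the third 2 µM library, with log2 fold changes of 0.30 to 0.39 over all 8 such fits.

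The other genes of break resection were above 0 as well but did not pass the test: Exo1, the long-range resection nuclease, at 0.28 ± 0.07 (SE, adjusted p = 0.0565), Rad50 at 0.16 ± 0.09, Rbbp8 at 0.15 ± 0.07 and Mre11a at 0.12 ± 0.07. All 5 members of that role had 2 µM libraries wholly above the untreated ones, a separation that 12.7% of all tested genes also showed. Eme1, the partner of the MUS81 nuclease, had a log2 fold change of 0.32 ± 0.08 (adjusted p = 0.0580), Fanci one of 0.25 ± 0.07 (adjusted p = 0.0798) and Atr one of 0.23 ± 0.07 (adjusted p = 0.0773). Among the 3 adaptors, Topbp1 was at 0.13 ± 0.07, Mdc1 at -0.04 ± 0.08 and Trp53bp1, which protects break ends from resection, at -0.18 ± 0.11. None of these passed the test. The members with all 2 µM libraries below the untreated ones were Fancg at -0.21 ± 0.12 and Chek2 at -0.11 ± 0.08, neither of which passed. Trp53bp1 was at 84.9, 108 and 114 CPM without RHPS4, 82.9, 88.9 and 98.5 CPM at 2 µM, and 116 and 106 CPM at 10 µM. Its first untreated library lay among the 2 µM ones, and all groups overlapped except that both 10 µM libraries were above those at 2 µM.

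**Figure D2:**
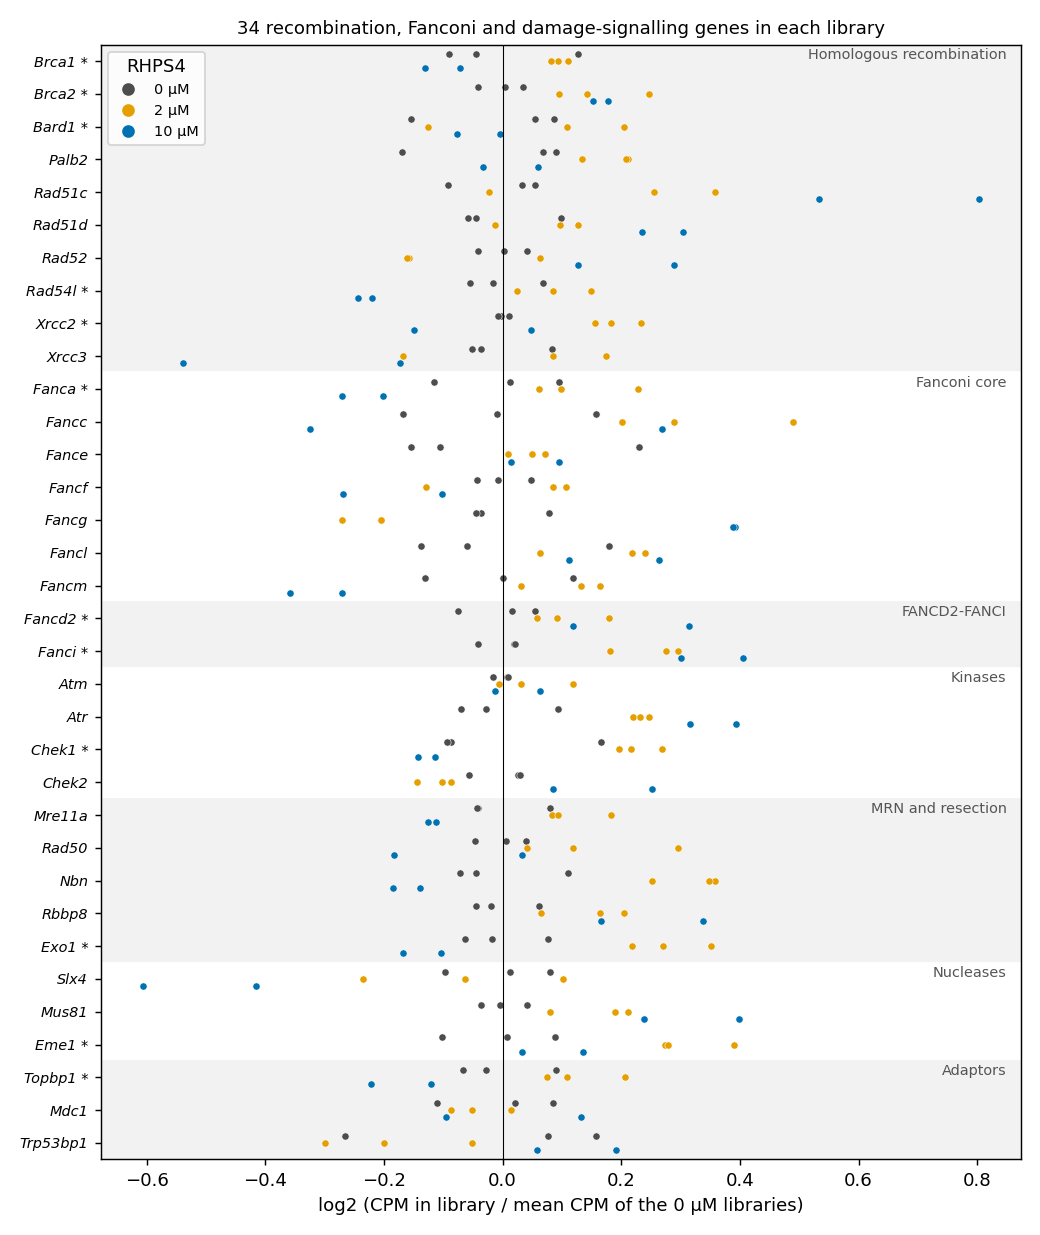
Level of each member in each of the 8 libraries as the log2 ratio to its mean in untreated cells, with rows grouped by role, colour showing the RHPS4 dose and an asterisk marking the cell-cycle linked genes. Nbn, Exo1 and Fanci show 2 µM points to the right of the untreated ones, while at 10 µM Rad51c stands far to the right and Slx4 to the left.

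Between 10 µM and 0 µM, 5 members rose and 2 fell, which is 20.6% against 13.9% of all tested genes, with 6.81% of all genes higher and 7.11% lower. Under scaling by total counts in place of TMM, 14 rose and none fell, while 3750 of all 14296 genes rose and 331 fell. That scaling moved the median log2 fold change of all tested genes to 0.23 in this comparison, from 0.02. For 10 µM against 2 µM it moved that median to 0.16, from 0.03. The changes given are therefore relative to the bulk of the genes. Members at a fitted value above 0 numbered 19, against 52.1% of all genes, the median was 0.03 against 0.02, and 11 were separated upward and 11 downward against 22.9% and 20.0% of all genes.

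Rad51c, on chromosome 11 (GRCm38, chr11:87376645-87404954), showed the largest rise. RAD51C is a recombination mediator that also acts in the later processing of junctions. Its level was 13.5, 12.2 and 13.3 CPM without RHPS4, 16.6, 12.8 and 15.5 CPM at 2 µM, and 18.8 and 22.6 CPM at 10 µM. The 10 µM libraries were above all others, and the 2 µM libraries overlapped the untreated ones. The log2 fold change for 10 µM against 0 µM was 0.67 ± 0.13 (SE), a fold of 1.60, with an adjusted p of 0.00610 by edgeR, and Rad51c was the 1 member among the DEGs of this comparison (3.09% of all genes). Without the second 10 µM library the log2 fold change was 0.51 and the adjusted p 0.0905. The DEG rule was missed in 5 of the 8 fits without 1 library, the others being those without the second (adjusted p = 0.0375) or the third (0.0215) untreated library, the third 2 µM library (0.0114) or the first 10 µM library (0.0131). Its complex partners and related mediators among the members did not pass, with Rad51d at 0.27 ± 0.10 (adjusted p = 0.0920), Xrcc2 at -0.05 ± 0.09 and Xrcc3 at -0.35 ± 0.15.

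Atr, the kinase of replication stress, stood at 190, 170 and 175 CPM without RHPS4, 207, 211 and 209 CPM at 2 µM, and 222 and 234 CPM at 10 µM. The 3 doses did not overlap. Its log2 fold change for 10 µM against 0 µM was 0.36 ± 0.07 (SE, adjusted p = 0.0102), and the adjusted p was 0.0523 without the second untreated library and 0.130 without the second 10 µM library. Atm, the kinase of double-strand breaks, was the least variable member, with a highest library 1.10 times the lowest. Atm was at 167, 164 and 167 CPM without RHPS4, 169, 165 and 180 CPM at 2 µM, and 173 and 164 CPM at 10 µM, and its log2 fold changes were 0.05 ± 0.06 at 2 µM and 0.03 ± 0.07 at 10 µM.

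Fanci, one of the ubiquitinated pair that clamps on crosslinked DNA, rose too. It was at 38.2, 36.7 and 38.3 CPM without RHPS4, 45.7, 46.3 and 42.8 CPM at 2 µM, and 46.4 and 49.97 CPM at 10 µM, with no overlap between doses. The log2 fold change at 10 µM was 0.35 ± 0.08 (SE, adjusted p = 0.0151), and the adjusted p was 0.0677 without the second untreated library and 0.172 without the second 10 µM library. Polg shares 15.4% of the exon bases of Fanci on the opposite strand and had a log2 fold change of -0.09 ± 0.08 in the same comparison. For 2 µM against 0 µM, however, Polg was at 0.25 ± 0.08 (adjusted p = 0.0857), beside 0.25 ± 0.07 for Fanci. For 10 µM against 2 µM Polg was at -0.34 ± 0.08 (adjusted p = 0.0138) and Fanci at 0.10 ± 0.08. Whether shared counts entered the Fanci values was not tested. The partner gene Fancd2 was at 61.6, 57.9 and 63.4 CPM, then 63.4, 64.9 and 69 CPM, then 66.2 and 75.8 CPM, with a log2 fold change of 0.22 ± 0.09 (adjusted p = 0.115) that did not pass.

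Slx4, the scaffold that holds the structure-cutting nucleases, fell. It was at 43.9, 47.4 and 49.7 CPM without RHPS4, 39.9, 45.0 and 50.4 CPM at 2 µM, and 35.2 and 30.9 CPM at 10 µM. Both 10 µM libraries were below all others, while 2 µM and untreated libraries overlapped. The log2 fold change was -0.51 ± 0.11 (SE), a fold of 0.702, with an adjusted p of 0.0123 by edgeR, and an adjusted p of 0.104 without the second 10 µM library. With total counts as the scale it was -0.30 (adjusted p = 0.0665).

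Slx4 and its client nuclease gene moved in opposite directions. Mus81 was at 20.3, 19.9 and 21.0 CPM without RHPS4, 23.2, 23.6 and 21.5 CPM at 2 µM, and 26.9 and 24.1 CPM at 10 µM, with no overlap between doses, and a log2 fold change of 0.32 ± 0.09 (SE, adjusted p = 0.0416). That call did not hold when any 1 of the 8 libraries was left out (adjusted p = 0.0578 to 0.280). A pair of genes of the core complex went opposite ways in the same manner. Fancm, the helicase that anchors the complex on DNA, had a log2 fold change of -0.32 ± 0.10 (adjusted p = 0.0482), and Fancg one of 0.40 ± 0.12 (adjusted p = 0.0491). Fancm was at 35.6, 42.4 and 39.0 CPM without RHPS4, 43.7, 39.9 and 42.8 CPM at 2 µM, and 32.4 and 30.4 CPM at 10 µM, the last below all others. Each of these calls was lost in 7 of the 8 fits without 1 library, with adjusted p up to 0.210 for Fancm and 0.213 for Fancg.

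The central recombination genes did not pass at either dose. Brca1 was at 123, 106 and 109 CPM without RHPS4, 120, 119 and 122 CPM at 2 µM, and 103 and 107 CPM at 10 µM, and its log2 fold changes were 0.10 ± 0.07 and -0.10 ± 0.08. Brca2, the central mediator of strand pairing, was at 122, 118 and 124 CPM, then 134, 130 and 144 CPM, then 137 and 135 CPM, with log2 fold changes of 0.16 ± 0.07 (adjusted p = 0.189) and 0.17 ± 0.07 (adjusted p = 0.165). All treated libraries of Brca2 were above all untreated ones, by a fold of 1.12 at 2 µM. Bard1, the partner of Brca1, was at 0.07 ± 0.10 and -0.05 ± 0.11, and Palb2, which bridges both BRCA proteins, at 0.20 ± 0.10 and 0.03 ± 0.11. Rad52, an annealing protein, was at -0.09 ± 0.10 and 0.21 ± 0.11.

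Of the core complex, Fancl, Fance, Fancf and Fancc did not pass in any comparison. Fancl, the ubiquitin ligase of the complex, had log2 fold changes of 0.19 ± 0.10 at 2 µM and 0.21 ± 0.11 at 10 µM. Fance, which links the complex to FANCD2, stood at 0.07 ± 0.11 and 0.08 ± 0.12, and Fancf, an adaptor encoded in a single exon, at 0.02 ± 0.10 and -0.19 ± 0.11. Fancc had the widest error of the 34, with 0.36 ± 0.17 and 0.04 ± 0.19, and its 10 µM libraries at 6.83 and 4.52 CPM lay on either side of its untreated ones at 6.32, 5.05 and 5.63 CPM. Rbbp8 was higher in both 10 µM libraries than in any untreated one, at 0.26 ± 0.08 (adjusted p = 0.0622), and missed the threshold.

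The comparison of 10 µM with 2 µM held the most calls. Here 3 members rose and 9 fell, 35.3% against 23.4% of all tested genes, with 11.5% of all genes higher and 11.9% lower. Scaled by total counts, 9 rose and 2 fell, the 2 being Nbn and Exo1, while 2818 of all 14296 genes rose and 781 fell. At the fitted scale 15 members were above 0, against 53.1% of all genes, the members' median was -0.14 against 0.03 for all genes, and the libraries were separated downward for 15 members and upward for 9, against 24.9% and 27.0% of all genes. Both treated groups enter the other comparisons as well, so the 3 sets of values are not independent.

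Nbn had the lowest p, with a log2 fold change of -0.48 ± 0.08 (SE, adjusted p = 0.00245). Exo1 was at 45.2, 41.0 and 42.3 CPM without RHPS4, 54.6, 51.7 and 49.8 CPM at 2 µM, and 39.9 and 38.1 CPM at 10 µM. The 2 µM libraries were the highest and the 10 µM ones the lowest, with no overlap. The log2 fold change between them was -0.41 ± 0.08 (SE, adjusted p = 0.00541). Mre11a, the nuclease partner of Nbn, fell by less, at -0.24 ± 0.08 (adjusted p = 0.0414). It was at 89.2, 82.0 and 81.9 CPM without RHPS4, 89.4, 90.1 and 95.8 CPM at 2 µM, and 78.1 and 77.3 CPM at 10 µM, with no overlap between doses, and that call was lost in 6 of the 8 fits without 1 library (adjusted p = 0.0645 to 0.115). Rad50 was at -0.23 ± 0.10 and did not pass, so 3 of the 5 resection members fell.

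Chek1 and Topbp1 were lower at 10 µM, while of the 4 kinase members 1 rose and 1 fell. Chek1, the effector kinase of ATR, was at 38.2, 32.1 and 31.9 CPM without RHPS4, 39.6, 41.1 and 39.0 CPM at 2 µM, and 31.5 and 30.9 CPM at 10 µM, with no overlap. Its log2 fold change was -0.35 ± 0.10 (SE, adjusted p = 0.0230). The call was lost without the first or the second 2 µM library (adjusted p = 0.0520 and 0.0774) and without the first or the second 10 µM library (adjusted p = 0.0520 and 0.0807). Topbp1 was at 311, 279 and 287 CPM without RHPS4, 315, 308 and 337 CPM at 2 µM, and 251 and 269 CPM at 10 µM, which gave -0.30 ± 0.08 (adjusted p = 0.0210, and 0.0847 without the first 10 µM library). The 10 µM libraries of Topbp1 were the lowest, and the other doses overlapped. Atr itself was at 0.12 ± 0.08 in this comparison. Chek2, the effector of ATM, rose instead at 0.28 ± 0.09 (adjusted p = 0.0455), a call that none of the 8 fits without 1 library kept (adjusted p = 0.0594 to 0.386). Chek2 was at 24.6, 23.2 and 24.6 CPM without RHPS4, 22.7, 22.5 and 21.8 CPM at 2 µM, and 25.6 and 28.7 CPM at 10 µM, so that 2 µM was the lowest group and 10 µM the highest.

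Of the recombination genes, Rad54l, a translocase that helps strands pair, fell by 0.32 ± 0.09 on the log2 scale (adjusted p = 0.0233), from 33.8, 32.3 and 31.0 CPM at 2 µM to 25.7 and 26.1 CPM at 10 µM, with 31.9, 29.3 and 30.1 CPM in untreated cells. The 10 µM libraries were below all others, and the call was lost without the first or the second library of either dose (adjusted p = 0.0648 to 0.0737). Rad51c rose by 0.46 ± 0.13 (adjusted p = 0.0240), with adjusted p of 0.0894 and 0.0529 without the second and the third 2 µM library and 0.257 without the second 10 µM library.

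In the core complex Fancg, an adaptor subunit, had the largest rise of this comparison among the members and was its 1 DEG (5.51% of all genes). Fancg was at 6.42, 5.94 and 5.90 CPM without RHPS4, 5.28, 5.05 and 5.28 CPM at 2 µM, and 7.98 and 7.97 CPM at 10 µM. The 3 doses did not overlap, with 2 µM the lowest. The log2 fold change was 0.62 ± 0.13 (SE), a fold of 1.53, with an adjusted p of 0.00593 by edgeR. The adjusted p stayed below 0.05 in every fit without 1 library, at 0.0426 or less, but the DEG rule was not met in any of them. Fancm fell by 0.42 ± 0.10 (adjusted p = 0.00968, and 0.0554 without the second 10 µM library), and Fanca, another core subunit, fell by 0.37 ± 0.09 (adjusted p = 0.0171). Without the second 2 µM or the second 10 µM library the adjusted p of Fanca was 0.0687 or 0.0748. Fanca was at 36.4, 42.1 and 39.7 CPM without RHPS4, 41.1, 46.1 and 42.2 CPM at 2 µM, and 34.3 and 32.7 CPM at 10 µM, and the 10 µM libraries were the lowest. Slx4 fell by 0.45 ± 0.11 (adjusted p = 0.0145, and 0.0923 without the second 10 µM library).

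**Figure D3:**
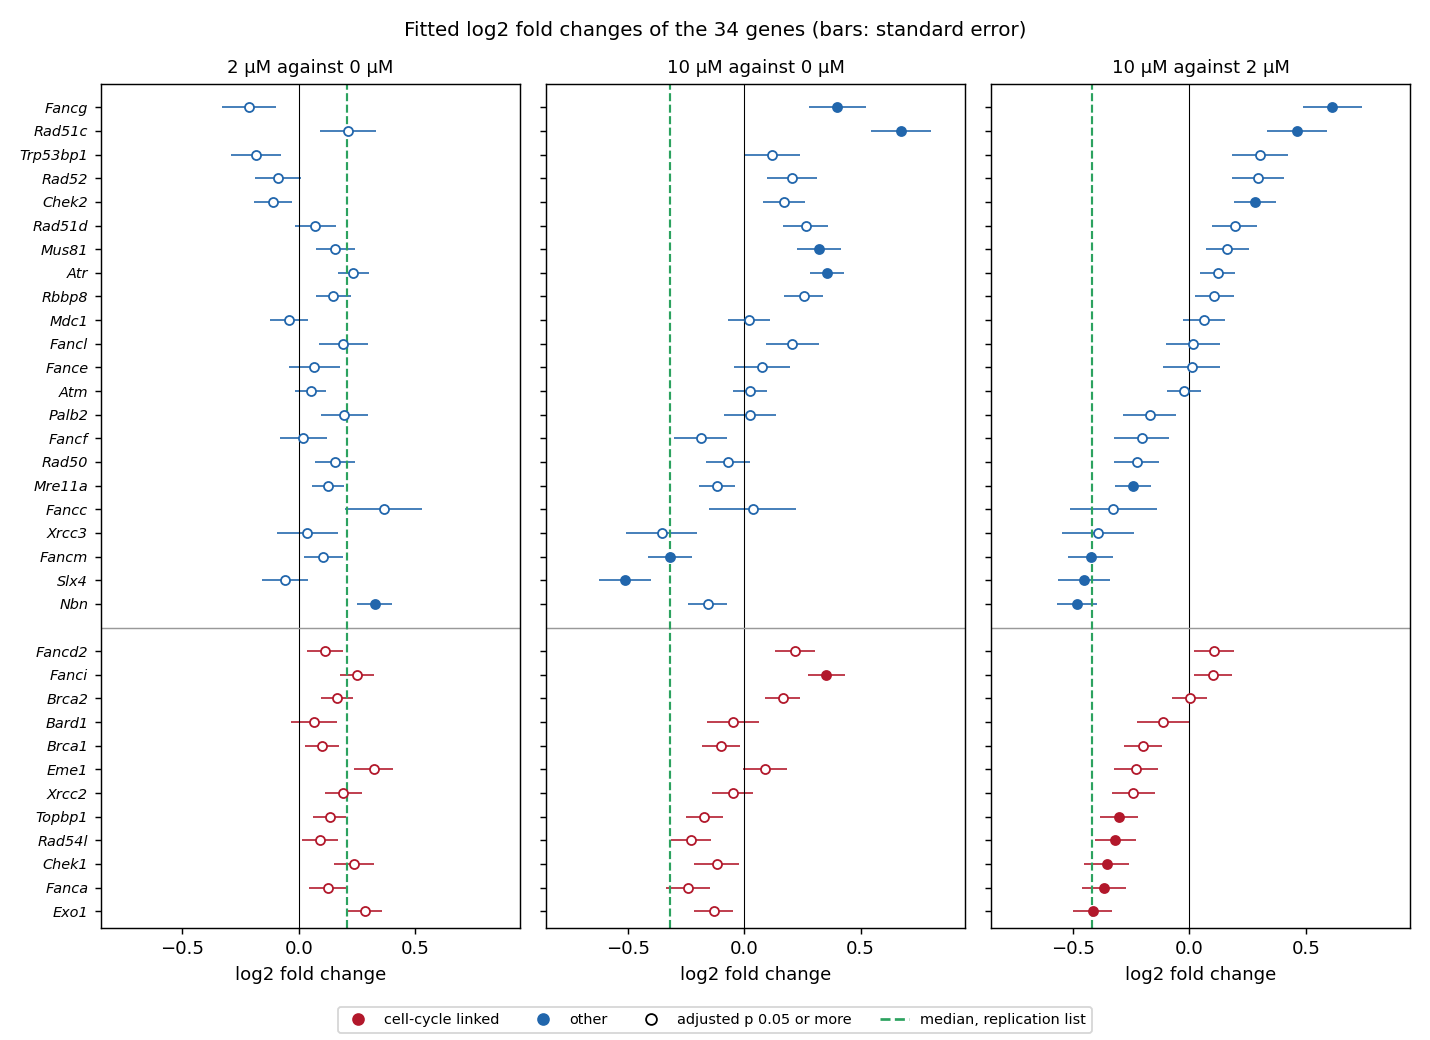
Fitted log2 fold change of each member in the 3 comparisons (bars SE, filled points adjusted p under 0.05), split into the other members above and the cell-cycle linked members below, with a dashed line at the median of the DNA replication list. In the right panel all 5 filled cell-cycle linked points lie left of 0, while the other members have filled points on both sides. The 3 filled points on the right, Fancg, Rad51c and Chek2, would join the lower block under the wider cell-cycle list.

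Set side by side, the 2 classes lay furthest apart between 10 µM and 2 µM, a difference that was not tested. All 12 cell-cycle linked members were above 0 at 2 µM against 0 µM (48.2% of all tested genes), with a median of 0.15. Of them 7 had 2 µM libraries wholly above the untreated ones (12.7% of all tested genes). None passed the test, while 6 had an unadjusted p under 0.05 (21.3% of all tested genes) and DESeq2 called none. Under total counts 5 of the 12 rose at 2 µM, as did 1062 of all 14296 genes. The 22 others had a median of 0.09, with 16 above 0. For 10 µM against 0 µM the cell-cycle linked median was -0.07, with 1 that rose and none that fell. The median of the others was 0.06, with 4 that rose and 2 that fell, where 6.81% of all tested genes rose and 7.11% fell. Under total counts the cell-cycle linked median turned to 0.14 and that of the others was 0.27. Between 10 µM and 2 µM the medians were -0.23 and 0.01. In that comparison 11.9% of all tested genes fell and 11.5% rose. Of the cell-cycle linked members 5 fell and none rose, and of the others 4 fell and 3 rose. This split depends on where the line between the classes is drawn. With a wider list that adds Fancg, Palb2, Rbbp8, Chek2 and Rad51c to the cell-cycle linked genes, 5 of its 17 members fell and 3 rose, and of the 17 others 4 fell and none rose, since all 3 members that rose changed class.

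The CPM of the 12 was also summed in each library and divided by that of the 22. The ratio was 0.813, 0.766 and 0.771 without RHPS4, 0.813, 0.827 and 0.818 at 2 µM, with 0.696 and 0.747 for the 10 µM libraries. The 10 µM libraries were lowest, and the first untreated library lay at the level of the 2 µM ones. Topbp1 contributes most to the numerator and the ratio is given as a description. Calls were found in both classes, and over all 3 comparisons 6 of the 12 cell-cycle linked members and 9 of the 22 others passed the test at least once, against 27.8% of all tested genes. Brca1, Brca2, Bard1, Xrcc2, Fancd2 and Eme1 were the cell-cycle linked genes that passed in none, a result that does not show them to be equal between doses.

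**Figure D4:**
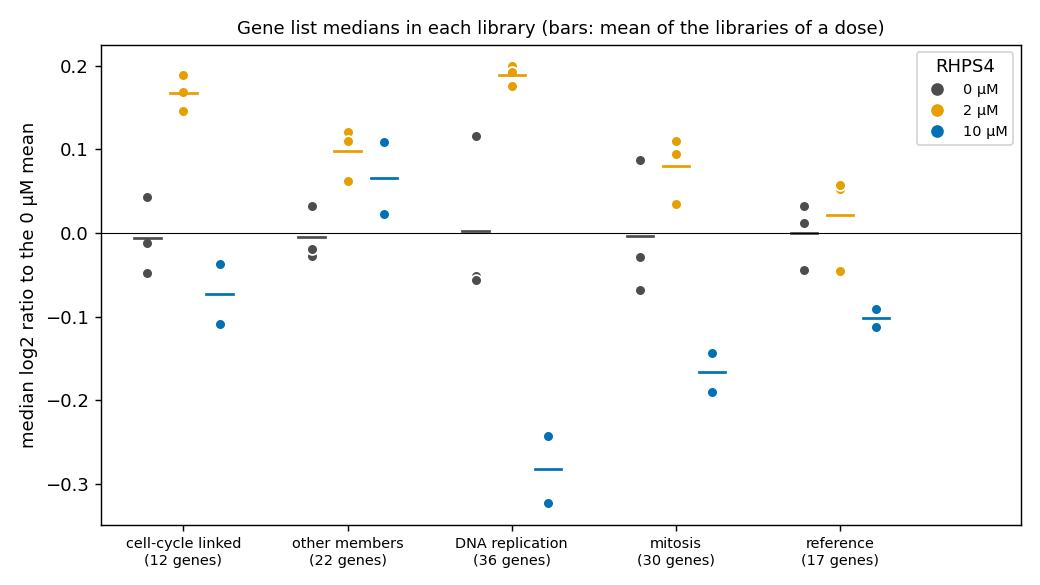
Median log2 ratio to the untreated mean in each of the 8 libraries for the 2 classes of members and for the DNA replication, mitosis and reference gene lists. At 10 µM the replication genes sit at -0.32 and -0.24, the cell-cycle linked members at -0.11 and -0.04 and the other members at 0.11 and 0.02. The reference genes sit at -0.11 and -0.09 in the same libraries.

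For scale, lists of 36 DNA replication genes and 30 mitosis genes were read in the same fit. Replication genes had medians of 0.21 at 2 µM and -0.32 at 10 µM against 0 µM, and -0.42 for 10 µM against 2 µM. Of the 36, 2 rose at 2 µM, 15 fell at 10 µM and 28 were lower at 10 µM than at 2 µM. Under total counts these numbers were 19, 5 and 20, with a median of -0.10 for 10 µM against 0 µM. All 36 were below 0 in both comparisons of 10 µM, and 22 and 34 of them were so under total counts. Mitosis genes had medians of 0.07, -0.17 and -0.24, with none, 7 and 14 that fell, and under total counts the second of these medians was 0.04, with 1 gene that rose and 2 that fell. On the TMM scale the medians of the 12 cell-cycle linked members had the sign of both lists in the 3 comparisons and were smaller in size than those of the replication list, but with the wider cell-cycle list the median for 10 µM against 0 µM was 0.03 and the shared sign was lost there. A list of 17 reference genes had medians of 0.04, -0.17 and -0.15, with 1, 3 and 2 that fell and none that rose. These medians have the same signs, so the shared sign is not particular to replication and mitosis genes. For 10 µM against 0 µM the cell-cycle linked median of -0.07 was smaller in size than that of the reference genes.

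A list of 48 further genes of the same pathways, all tested, was read in the same way, with medians of 0.12, -0.09 and -0.20 in the 3 comparisons. At 2 µM 3 rose and none fell, namely Cdc25a (0.34 ± 0.08, adjusted p = 0.0373), the phosphatase that CHEK1 restrains, Hus1 (0.35 ± 0.08), a subunit of the 9-1-1 clamp, and Polq (0.30 ± 0.07), the polymerase of end joining at microhomologies. Under total counts 10 rose at 2 µM. Of the 48, 2 rose and 6 fell for 10 µM against 0 µM, whereas 10 rose and 3 fell under total counts, with a median of 0.12. Clspn, the adaptor between ATR and CHEK1, fell by 0.62 ± 0.11, Dna2, a resection nuclease, by 0.58 ± 0.10, and H2afx, the histone that ATM marks at breaks, by 0.52 ± 0.09. Fam175a, the scaffold Abraxas of the BRCA1-A complex, rose by 0.77 ± 0.09 (adjusted p = 0.000351), and Rad51b, which sits in a complex with Rad51c, rose by 0.50 ± 0.12 (adjusted p = 0.0176). Between 10 µM and 2 µM, 2 rose and 14 fell, or 4 and 11 under total counts. Those that fell included Clspn (-0.81 ± 0.11), Cdc25a (-0.73 ± 0.09), Hus1 (-0.53 ± 0.10) and the subunits Rpa2 (-0.49 ± 0.10) and Rpa1 (-0.38 ± 0.08) of the single-strand binding protein.

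Downstream of the kinases, 20 of 21 genes known as p53 targets could be tested. None rose and 2 fell at 2 µM, Trp53inp1 (-1.04 ± 0.13, adjusted p = 0.00247) and Cdkn1a (-1.41 ± 0.33, adjusted p = 0.0398). Cdkn1a was low throughout this comparison, at 3.97 ± 1.40 CPM (SD) without RHPS4 and 1.49 ± 0.807 CPM at 2 µM. At 10 µM against 0 µM 5 rose and 1 fell (10 and none under total counts), led by Sesn2 (1.53 ± 0.12), Gadd45a (1.49 ± 0.18) and Btg2 (0.97 ± 0.12), and Sesn2 and Gadd45a are also known as targets of the stress factor ATF4. These folds were larger than any of a member, whose log2 fold changes ran from -0.51 to 0.67 in that comparison.

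Some counts may be shared with neighbours. Exons of 12 members overlap those of another counted gene, always on the opposite strand and over 0.495% to 22.1% of the member's exon bases, and the strand setting of the counting is not given in the sources used here. The largest overlap was that of Trp53bp1 with Tubgcp4. Among the members that passed a test the overlaps with tested genes were those of Fanci with Polg (15.4%), Fanca with Zfp276 (8.62%), Rad54l with Lrrc41 (4.12%) and Mre11a with Ankrd49 (1.81%). For 10 µM against 2 µM Ankrd49 had a log2 fold change of -0.38 ± 0.10 (adjusted p = 0.0221), in the direction of Mre11a, while Zfp276 was at 0.04 ± 0.09, against the direction of Fanca.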

How the data were processed

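Wild-type MEF cells exposed to 0, 2 or 10 µM RHPS4 were profiled by RNA-Seq in 3, 3 and 2 libraries. What the authors deposited are counts per gene and library, whole numbers without normalization. Per the submitters' processing notes, reads were checked with FastQC, trimmed with Trim Galore and cutadapt, aligned to mm10 with STAR 2.5.2a and counted with featureCounts. The annotation and strand setting are not given in the sources used here. The totals of 10455965 to 26688121 counts bound the precision of low genes.

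The 34 members and all gene lists (replication, mitosis, reference genes, p53 targets, other pathway genes, cell type markers) were chosen with earlier results of these data known. Genes passing filterByExpr were fitted with edgeR 4.0.16 (TMM, quasi-likelihood test, dose as the one factor, all 8 libraries) in R 4.3.3, and p-values were adjusted by Benjamini-Hochberg over 14296 genes. All members are named, with values per library for those called in any comparison and for Atm, Atr, Brca1, Brca2, Fancd2 and Trp53bp1. Genes of other lists are named only where called. The opposite-strand neighbours were named after their values were seen. Scripts were tested on simulated data. Alternatives were scaling by total counts, RLE normalization, TMM over nuclear genes, no filter, DESeq2 1.42.0, a minimum of 10 counts per library, a replicate block, fits of only the groups compared, no minimum fold, a wider cell-cycle list and leaving out each library. CPM values use TMM-scaled library sizes. Exon lengths and overlaps came from GENCODE on GRCm38 and promoters from RefSeq.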

Additional observations from a re-analysis of the deposited data

How the results depend on the processing

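No direction of a called member turned under any alternative. Nbn, Exo1 and Fancg for 10 µM against 2 µM were the members called at an adjusted p under 0.05 in all 16 alternatives.

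Members called at 2 µM against 0 µM numbered 1, but 7 under total counts, 3 with at least 10 counts in every library, 0 with the replicate block and 0 to 7 without 1 library. The 7 came without the first untreated library, and the 0 without the second or the third untreated library or any 2 µM library. All-gene calls also moved, from 595 to 1364 under total counts, 2061 without the first untreated library and 82 without the second 2 µM library. For 10 µM against 0 µM they went from 1991 to 4081 under total counts and 1113 without the second untreated library. Between 10 µM and 2 µM they went from 3346 to 2083 without the second 2 µM library. For 10 µM against 0 µM the 7 became 14 under total counts, 4 with the replicate block, 4 with only the 2 groups compared, and 0 to 8 without 1 library, with 0 without the second 10 µM library, 2 without the second untreated library, and 4 without the third untreated library, any 2 µM library or the first 10 µM library. For 10 µM against 2 µM the 12 became 5 to 15 without 1 library, with 6 without the second 2 µM library and 5 without the second 10 µM library.

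The DEG count for 10 µM against 0 µM, 1 member, was 2 under total counts, 0 with the replicate block, 0 with only the 2 groups compared and 0 to 1 without 1 library. For 10 µM against 2 µM the 1 DEG became 2 under total counts, 0 with no filter, 0 with DESeq2, 0 with the replicate block, 0 with only the 2 groups compared, 4 with no minimum fold and 0 in every fit without 1 library.

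The median log2 fold change of cell-cycle linked members at 2 µM was 0.15, 0.23 under total counts and 0.14 to 0.18 without 1 library, and that of the others 0.09, 0.17 under total counts and 0.0784 to 0.129 without 1 library. At 10 µM against 0 µM the cell-cycle linked median of -0.07 became 0.14 under total counts, 0.0254 with the wider list and -0.13 to -0.0679 without 1 library. That of the others, 0.06, became 0.27 under total counts, 0.0163 with no filter, 0.0132 with DESeq2 and -0.0108 to 0.0803 without 1 library, the lowest without the first 10 µM library. At 10 µM against 2 µM the cell-cycle linked median of -0.23 became -0.10 under total counts, -0.17 with the wider list and -0.34 to -0.21 without 1 library, and that of the others, 0.01, became 0.15 under total counts, -0.0307 with no filter and -0.0991 to 0.0162 without 1 library. The cause of these moves was not tested, except that total counts shift all genes alike.

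Whether library numbers pair the samples is not stated in the labels, and the values do not settle it. With 2 libraries at 10 µM the deviations of those libraries mirror each other, so their correlations cannot decide. Deviations of same-numbered libraries correlated at 0.20, 0.08 and 0.16 between 0 and 2 µM, at -0.15 and -0.11 between 0 and 10 µM and at -0.02 and -0.06 between 2 and 10 µM. Between 0 and 2 µM each library correlated best with its own number, a hint from the data and not from the design.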
